A study of Mus musculus with 4 samples.

Results

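The genes described here build, cut, cross-link and anchor actin filaments, or steer them during cell migration. They were taken from a list of 44 genes that leaves out reported targets of the microRNA miR-142, and 41 of them had a probe set annotated to that gene alone among the 19938 genes measured. Arpc3 and Actr2, both subunits of the Arp2/3 complex, had no such probe set, and the cytoplasmic gamma-actin gene Actg1 was annotated only on 4 probe sets shared with the beta-actin gene Actb. For the 3 genes with several probe sets, among them Arpc1b and Myh9, the one with the highest mean was used.

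Expression was measured in dendritic cells (DCs), the antigen-presenting cells that take up material in tissues and carry it to T cells. C57BL/6 bone marrow that was miR-142+/+ (wt) or miR-142-/- (ko) was grown for 8 days in Flt3 ligand (Flt3-L) at 200 ng/ml, which all 4 groups received. Cells without B220 and with CD11c were sorted into CD4-equivalent DCs, which carry CD172 and CD11b and little CD24, and CD8-equivalent DCs, which carry CD24, lack CD172 and are low in CD11b. Each combination of genotype and subset was measured on 1 Affymetrix array, and the labels give neither the number of mice or cultures behind an array nor how far the deletion extends.

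Actin filaments grow when nucleators such as the Arp2/3 complex and the formins start them, and shrink when severing and monomer-binding proteins take them apart. Talin, vinculin, zyxin and the ezrin family tie filaments to adhesions and to the membrane. DCs depend on this machinery for crawling, for sampling fluid and particles, and for the long processes that mature cells extend towards T cells.

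The microRNA that separates the genotypes has 2 mature arms, shown here from RefSeq (GRCm38.p6, chromosome 11, plus strand) because miR-142 is the gene the genotypes are named for. Capitals mark the seed, bases 2 to 8, which pairs with target transcripts.
miR-142a-5p: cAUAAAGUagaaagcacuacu
miR-142a-3p: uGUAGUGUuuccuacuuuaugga

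The probe set for Mir142 had log2 values of 10.37 and 9.87 in the CD4- and CD8-equivalent DCs of wt, against 4.92 and 4.79 in ko, so the array labels and this probe set pointed the same way. Values are robust multi-array average (RMA) summaries, and the floor used below is 5.68, the 50th percentile of the arrays' values for probe sets of 1 gene. Of the 41 genes, 40 lay at or above the floor on every array and 39 above 8.88, the 75th percentile, so nearly all of this machinery was well expressed in both subsets. Markers of the subsets are given as a description of the sorted cells. By the limma test described below, 11 of 12 CD4-equivalent markers fell in CD8-equivalent DCs, beside 6.35% of all genes. In the same test 6 of 12 CD8-equivalent markers rose there, beside 7.98% of all genes. So did 7 of 10 genes of plasmacytoid DCs, which the gate on cells without B220 should leave out. Of the CD8-equivalent markers 11 read higher there in both genotypes, while Cadm1 differed by 0.14 in wt and -1.71 in ko. Cd24a, Sirpa and Itgam encode CD24, CD172 and CD11b, by which the cells were sorted, so the sort set their direction. The called Gcsam and the uncalled Itgae lay below the floor on both CD4-equivalent arrays and entered the fit only through the CD8-equivalent ones. These marker counts therefore describe the sort and are no check of it. The ko CD4-equivalent array stood apart from the others in neutrophil genes. There 12 of 14 reached the floor, against 4 on wt CD4-equivalent and 1 and 2 on the CD8-equivalent arrays. Its values also differed from wt CD4-equivalent in genes of other DCs. At 1.5-fold or more, 9 of 10 plasmacytoid DC genes and 5 of 10 CD8-equivalent markers compared were higher in ko and 0 lower. Over all genes compared 3.98% were higher. Clec9a read 7.78 in wt and 10.85 in ko, and Irf8 11.13 and 12.42. The part of these genes in the genotype differences was not tested. Genes of B cells, T and NK cells and the erythroid and megakaryocyte lineages had mean levels of 4.99 to 6.04 on every array, near the floor. Below the floor on all arrays were 4 of 7, 6 of 8 and 6 of 7 of them. Single genes stood well above it, such as Cd79b at 9.60 to 9.90 and Cd28 at 7.61 to 10.54.

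The largest differences lay between the subsets, although the median size of a difference over the 41 genes was 0.100 between subsets and 0.120 between genotypes. Over all genes fitted these medians were 0.222 and 0.140, and over genes above the 75th percentile on every array 0.182 and 0.114. The question of the subset comparison is which parts of the machinery differ between CD4- and CD8-equivalent DCs whatever the genotype. Of the 41 genes, 2 rose in CD8-equivalent DCs, the severing protein gene Scin and the membrane linker gene Ezr, and 2 fell, the bundling protein gene Fscn1 and the adhesion gene Zyx. The test was limma with genotype and subset as additive terms, Benjamini-Hochberg adjusted over the 10239 genes that reached the floor, with the genotypes standing in for replicates. It called 7.98% of all genes as higher and 6.35% as lower in CD8-equivalent DCs, so the counts of 2 and 2 were no larger a share than among genes in general. Fscn1 is counted here although it entered the fit only through the CD4-equivalent arrays. At an unadjusted p under 0.05, limma gave 2 of the 41 as higher, where it gave 20.3% of all genes, and 10 as lower, where it gave 13% of all genes.

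Fscn1 encodes fascin, which packs filaments into the tight parallel bundles of DC processes and is a classical marker of mature DCs. It read 8.34 in wt and 8.66 in ko CD4-equivalent DCs, but 5.00 in wt and 5.19 in ko CD8-equivalent DCs. Both CD8-equivalent values lay below the floor, so the transcript reached the floor in one subset only and the subsets did not overlap. How many of all genes lack overlap between subsets or genotypes was not counted, so here and below it only describes single genes. Set against the floor, the CD4-equivalent values lay 2.66 higher in wt and 2.98 higher in ko. Their mean lay 2.82 above the floor, so averaged over the genotypes Fscn1 was at least 7.06-fold lower in CD8-equivalent DCs. For wt alone the bound is smaller. The measured values differed by -3.40 ± 0.12 (SE). Since Fscn1 entered the fit only through the CD4-equivalent arrays, that difference is given as a description of this gene.

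Scin encodes scinderin (adseverin), a calcium-dependent protein of the gelsolin family that severs and caps filaments. It read 7.60 in wt and 6.11 in ko CD4-equivalent DCs, against 10.30 in wt and 9.57 in ko CD8-equivalent DCs. Every CD8-equivalent value lay above every CD4-equivalent value, in the opposite order to Fscn1. The mean difference was 3.08 ± 0.21 (SE), 8.45-fold, with a limma adjusted p of 0.0045, and Scin ranked 31 of 10239 genes.

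**Figure D1:**
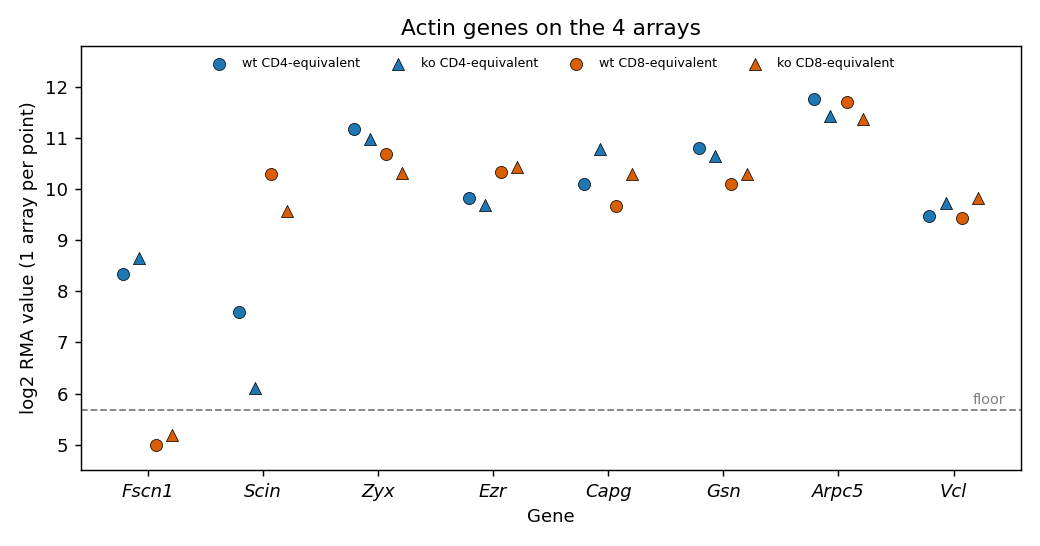
Log2 RMA values of 8 genes on the 4 arrays, 1 point per array, with circles for wt, triangles for ko, blue for CD4-equivalent and orange for CD8-equivalent DCs; the dashed line is the floor of 5.68. Fscn1 lies below the floor in both CD8-equivalent arrays, Scin is higher in both CD8-equivalent arrays, and Capg is higher in ko within each subset.

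The other called genes moved by about 1.5-fold. Zyx encodes zyxin, which recruits Ena/VASP proteins to focal adhesions and stressed filaments. Its values were 11.18 in wt and 10.98 in ko CD4-equivalent DCs and 10.68 and 10.32 in the corresponding CD8-equivalent arrays, a mean difference of -0.58 ± 0.12 (limma adjusted p = 0.041). Ezr encodes ezrin, which links the cortex to membrane proteins, and it read 9.82 and 9.69 in wt and ko CD4-equivalent DCs against 10.34 and 10.43 in CD8-equivalent DCs. The difference was 0.63 ± 0.13 (limma adjusted p = 0.037), and in neither gene did the subsets overlap. Neither call held without the floor (limma adjusted p = 0.055 for each) or without genotype in the model (adjusted p = 0.15 for Zyx and 0.086 for Ezr). Msn, which encodes the related linker moesin, lay on the other side of 0 at -0.18 in wt and -0.22 in ko (limma adjusted p = 0.29).

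Leaving out an array leaves 1 array in one arm and the other factor in the residual, and such fits called 0 to 45 of all genes for subset in place of 1467. These fits have 3 arrays and subset as the only factor. Fscn1 entered them, like the main fit, only through the CD4-equivalent arrays, so its differences are given as a description. Scin, Zyx and Ezr kept their direction but were not called in any of these fits, where Scin had adjusted p-values from 0.080 to 0.24. The differences themselves ranged from -3.56 to -3.24 for Fscn1, from 2.33 to 3.83 for Scin, from -0.76 to -0.40 for Zyx and from 0.57 to 0.70 for Ezr. In the wt arrays alone Fscn1 differed by -3.34, Scin by 2.70, Zyx by -0.50 and Ezr by 0.52.

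At 1.5-fold or more, the pairwise differences named few genes. In wt, Scin was higher in CD8-equivalent DCs, where 7.88% of all genes compared were, and Fscn1 and Gsn were lower, where 7.33% were. In ko, Scin and Ezr were higher (12.2% of all genes) and Fscn1 and Zyx lower (8.05% of all genes). These are differences of single arrays, with no replicate check.

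**Figure D2:**
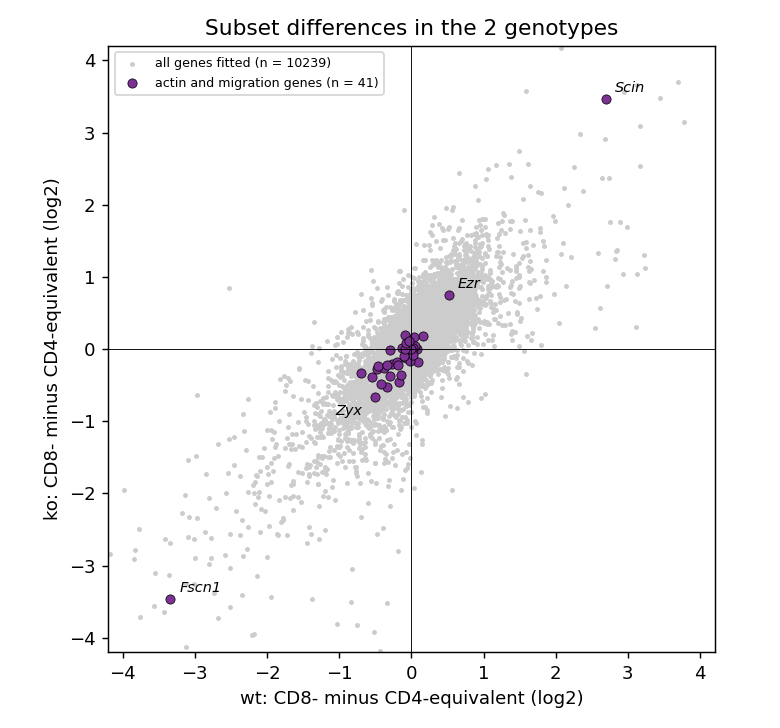
Log2 difference, CD8- minus CD4-equivalent, in wt (x axis) and ko (y axis) for the 41 actin and migration genes (purple) over all 10239 genes fitted (grey, of which 11 lie outside the axes). Scin and Fscn1 lie far from the other 39 genes and on opposite sides.

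Many of the other differences were small and below 0. Of the 41 genes, 26 read lower in CD8-equivalent DCs in both genotypes, 7 read higher in both and 8 had opposite signs in wt and ko, whereas 29% of all genes fitted read lower in both. The count was 25 after cyclic loess and 32 with each array centred on its median, where 34.7% and 37.6% of all genes read lower in both. The median difference over the 41 genes was -0.09 in wt and -0.08 in ko, beside 0.04 and 0.11 over all genes fitted. Cyclic loess moved the ko median of all genes from 0.11 to 0.01, while the 41 genes had medians of -0.08 as deposited and -0.10 after loess. Differences of this size are within the error of single genes, for which the limma SE was mostly 0.12.

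The differences of wt and ko, which share no array, were similar across the 41 genes (Pearson r = 0.98, Spearman correlation 0.78). Without Scin and Fscn1 the values were 0.80 and 0.75 over 39 genes, and over all genes fitted 0.79 and 0.72. These correlations run across genes, which are not independent replicates, and each point carries the probe response of its own probe set.

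Of the 4 genes of formins and Ena/VASP proteins, 3 read lower in CD8-equivalent DCs in both genotypes, beside 29% of all genes fitted. The formin genes Diaph1, whose product nucleates and elongates straight filaments, and Diaph2 differed by -0.48 and -0.54 in wt and by -0.28 and -0.39 in ko (limma adjusted p = 0.11 and 0.065). Vasp, which encodes a filament elongator of the Ena/VASP family, differed by -0.18 in wt and -0.45 in ko (adjusted p = 0.17), and its relative Evl by 0.09 and -0.18. None of these passed the threshold.

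All 4 genes of filament crosslinkers and scaffolds read lower in both genotypes (3 after cyclic loess), beside 29% of all genes fitted (34.7% after loess). Besides Fscn1 they were the scaffold gene Iqgap1 (-0.37 in wt and -0.26 in ko, limma adjusted p = 0.14), the filamin gene Flna (-0.19 and -0.18, adjusted p = 0.32) and the plastin gene Lcp1, which was within 0.06 of 0. Dock2, which leukocytes need for chemotaxis, differed by -0.30 and -0.37 (adjusted p = 0.12), and Elmo1, which encodes a partner of DOCK proteins, by -0.47 and -0.24 (adjusted p = 0.13). Vav1, which encodes a signalling protein of blood cells that acts below antigen receptors, differed by -0.09 in wt and 0.002 in ko, and Dock8 by -0.29 and -0.01.

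Of the 3 genes of the gelsolin family, Scin passed the subset test and the others did not. Capg, which encodes a protein that caps filaments without severing them, read -0.42 in wt and -0.49 in ko (limma adjusted p = 0.065), and Gsn, which encodes gelsolin, read -0.70 and -0.34 (adjusted p = 0.073). Gsn read 10.80 in wt and 10.64 in ko CD4-equivalent DCs and 10.11 and 10.30 in the CD8-equivalent arrays. Both CD8-equivalent values lay under both CD4-equivalent values for Gsn. For Capg the wt CD4-equivalent value, 10.09, lay below the ko CD8-equivalent value, 10.29. With each array centred on its median, limma called both Capg (adjusted p = 0.040) and Gsn (adjusted p = 0.039), as it did with a stricter floor at the 75th percentile (adjusted p = 0.035 and 0.044).

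None of the genes of actin itself, monomer binding, the Arp2/3 complex, its activators, coronins and myosin passed the subset test. Actb read 13.82 in wt and 13.86 in ko CD4-equivalent DCs and 13.80 and 13.82 in CD8-equivalent DCs. The monomer-binding genes spanned 0.04 for Cfl1 (cofilin, which severs old filaments), 0.05 for Pfn1 (profilin, which feeds monomers to growing ends), 0.16 for Tmsb4x (thymosin beta 4, which stores monomers) and 0.20 for Cap1. In the Arp2/3 complex, which nucleates branched filaments, mean subset differences of the 6 measured subunits ran from -0.24 for Arpc4 to 0.17 for Arpc1a. Of the complex's subunits, 4 read lower and 2 higher in both genotypes, beside 29% of all genes lower in both. Of its activators, Wipf1, which encodes the partner that protects the Wiskott-Aldrich syndrome protein, differed by -0.34 and -0.52 (limma adjusted p = 0.080, and 0.046 with the stricter floor), Was itself by -0.07 and -0.13 and Wasf2 by 0.03 and 0.16. The coronins lay at 0.03 and -0.08 for Coro1a, -0.14 and -0.35 for Coro1b and -0.13 and 0.02 for Coro1c. Myh9, the gene of a myosin II heavy chain that contracts the cortex, read 11.47 in wt and 11.32 in ko CD4-equivalent DCs and 11.39 and 11.41 in CD8-equivalent DCs. Its second, dimmer probe set differed more, reading 9.52 in wt CD4-equivalent DCs and from 8.85 to 8.92 on the other arrays. The talin gene Tln1 differed by -0.34 and -0.22 (limma adjusted p = 0.18), and the vinculin gene Vcl by -0.04 and 0.11.

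**Figure D3:**
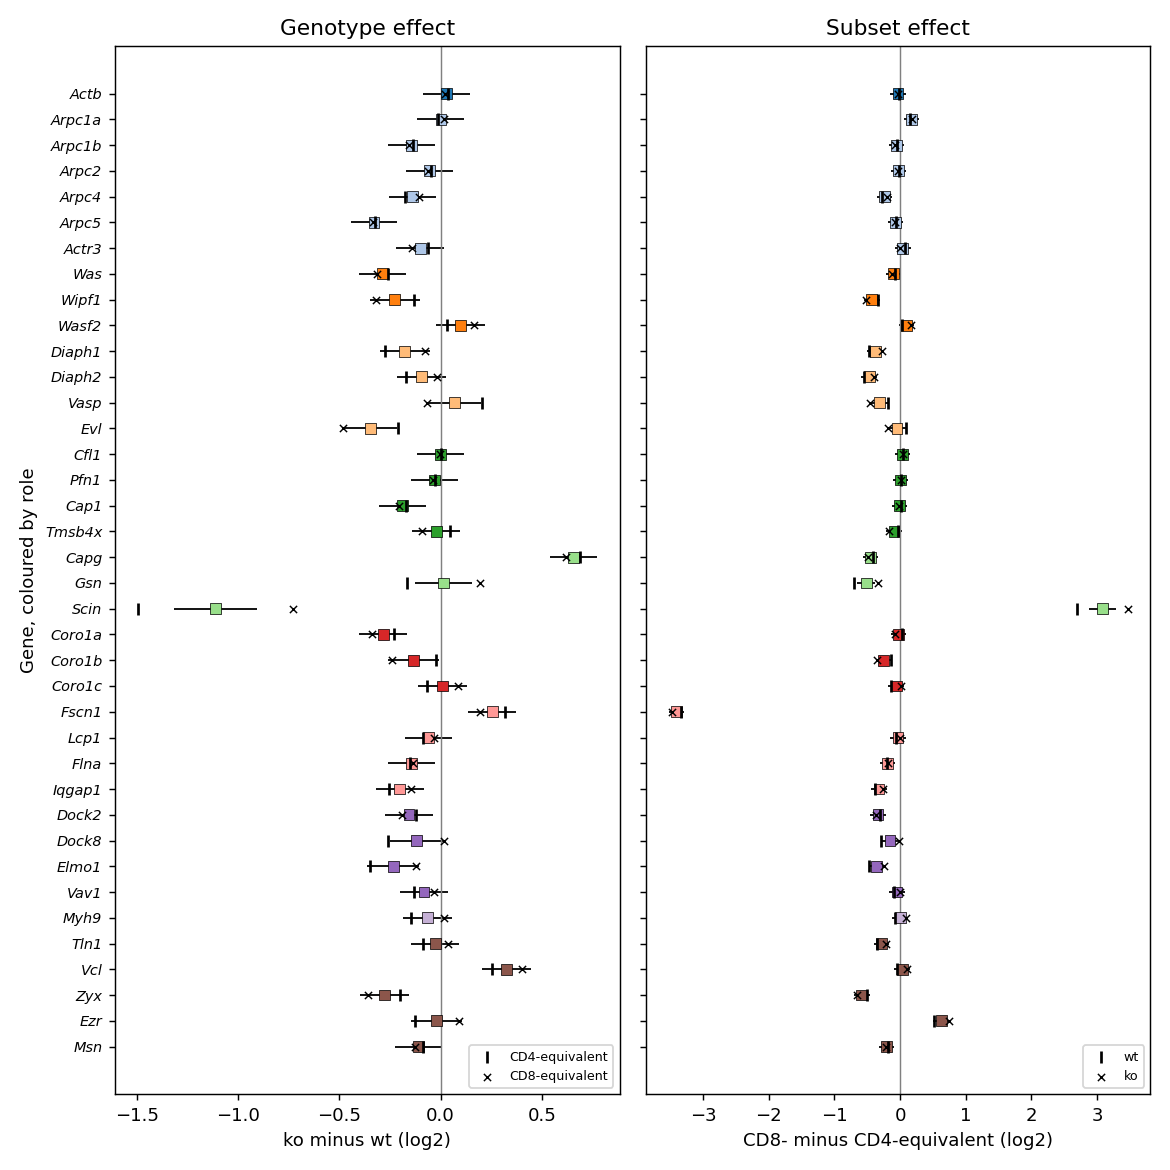
Fitted log2 differences of 38 of the 41 genes with their limma standard errors (squares with bars, coloured by role), for ko minus wt (left) and CD8- minus CD4-equivalent (right); ticks and crosses give the single differences named in each legend, and the x axes differ in scale. Scin and Fscn1 lie at 3.08 and -3.40 on the right, and Scin and Capg at -1.11 and 0.66 on the left.

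Genes of other cell states differed between the subsets as well. Of 11 measured mature DC genes, all 11 read lower in CD8-equivalent DCs in both genotypes and 4 fell by limma, where 29% and 6.35% of all genes did. Among them Ccl22 (5.15 in wt and 4.67 in ko) and Socs2 (5.08 and 5.47) lay below the floor in CD8-equivalent DCs. Like Fscn1 they entered the fit only through the CD4-equivalent arrays, so these counts are given as a description. The mean log2 level of the 11 was 8.64 in wt and 8.35 in ko CD4-equivalent against 7.61 and 7.39 in CD8-equivalent DCs. Monocyte and macrophage genes had means of 9.05 and 9.19 against 7.75 and 6.69, with C1qa and Mertk below the floor on all arrays. Genes of plasmacytoid DCs, which the gate on cells without B220 should leave out, ran the other way, with means of 8.11 and 9.32 in CD4-equivalent and 10.16 and 10.35 in CD8-equivalent DCs, and stem and progenitor genes had means of 7.37 and 8.07 against 8.10 and 8.85. The CD8-equivalent markers had means of 8.52 and 9.28 against 10.33 and 9.95. The part of these cell states in the differences of Fscn1 and Scin was not tested, and in sorted bulk RNA fewer cells that express a gene and less RNA per cell cannot be told apart.

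The proximal promoters of the 4 called genes are shown from RefSeq (GRCm38.p6), from 250 bases before to 50 bases after the annotated start, because these genes separate the subsets. Capitals mark matches, on either strand, to any of 5 motifs searched: TGANTCA, the element bound by AP-1; TGACGTCA, the cyclic AMP response element (CRE); GAGGAAGT, a PU.1 site; GGAANNGAA, a shortened composite of ETS and IRF factors; and the CArG box of serum response factor. TGANTCA and TGACGTCA cannot match the same bases.
Fscn1 (chr5:142960105-142960404, plus strand): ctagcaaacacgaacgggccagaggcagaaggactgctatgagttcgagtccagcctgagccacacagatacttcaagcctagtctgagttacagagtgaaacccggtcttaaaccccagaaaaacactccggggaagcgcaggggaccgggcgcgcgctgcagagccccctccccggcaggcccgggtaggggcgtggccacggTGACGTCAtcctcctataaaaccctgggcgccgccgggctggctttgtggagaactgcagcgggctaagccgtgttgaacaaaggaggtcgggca
Scin (chr12:40134179-40134478, minus strand): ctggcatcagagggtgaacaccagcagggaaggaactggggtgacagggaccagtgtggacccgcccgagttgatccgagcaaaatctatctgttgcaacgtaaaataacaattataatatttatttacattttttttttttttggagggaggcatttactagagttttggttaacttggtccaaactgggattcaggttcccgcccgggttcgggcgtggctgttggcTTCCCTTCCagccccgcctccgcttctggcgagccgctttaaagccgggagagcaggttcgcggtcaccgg
Zyx (chr6:42349578-42349877, plus strand): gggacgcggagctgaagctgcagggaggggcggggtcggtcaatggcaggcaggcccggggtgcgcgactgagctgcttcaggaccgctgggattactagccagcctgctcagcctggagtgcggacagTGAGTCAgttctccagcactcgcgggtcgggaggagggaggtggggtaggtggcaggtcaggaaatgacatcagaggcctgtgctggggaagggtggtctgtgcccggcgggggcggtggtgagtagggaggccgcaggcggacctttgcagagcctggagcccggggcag
Ezr (chr17:6782731-6783030, minus strand): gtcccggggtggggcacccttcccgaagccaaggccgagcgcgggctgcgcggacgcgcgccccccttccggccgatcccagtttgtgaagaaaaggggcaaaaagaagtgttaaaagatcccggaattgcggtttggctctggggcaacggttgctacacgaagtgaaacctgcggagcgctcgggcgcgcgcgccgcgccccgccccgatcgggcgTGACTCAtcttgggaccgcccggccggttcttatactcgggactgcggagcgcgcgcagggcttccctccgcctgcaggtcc

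Each of the 4 held 1 match. Fscn1 held TGACGTCA, from base -45 to -38 relative to the start, which 1.79% of all 32851 promoters hold and 3.13% of those of fitted genes. Of the 37 genes here that have a promoter in the table, 2 held it, 1 of them uncalled. Zyx (TGAGTCA, from -121 to -115) and Ezr (TGACTCA, from -32 to -26) held the AP-1 element, found in 7.81% of all promoters and 4.84% of those of fitted genes. It was in 3 of the 37 genes, the third being the uncalled Diaph2, and Zyx and Ezr differed in opposite directions. Scin held the reverse complement of GGAANNGAA, from -21 to -13. This motif was in 8.24% of all promoters and 7.52% of those of fitted genes. Of the 37 genes, 5 held it, Scin, Gsn, Cfl1, Diaph2 and Wipf1. The percentages count promoters, and a gene can have several: the 37 genes have 46, of which 7 held this motif. GAGGAAGT was found in 3 of the 37 (Arpc1b, Elmo1 and Vav1), in 3.20% of all promoters and in 3.41% of those of fitted genes. The CArG box was in 2 (Arpc4 and Vcl), in 1.63% of all promoters and in 1.34% of those of fitted genes. A match describes letters in this window and no binding was measured.

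The loss of miR-142 was compared next, within each subset and over both. No gene of the 41 passed limma's test for genotype, which called 0.166% of all genes, and 5 had an unadjusted p under 0.05, beside 15.6% of all genes, so the 41 genes held no more of them than genes in general. Those 5 were Capg and Vcl, which read higher in ko, and Scin, Arpc5 and Evl, which read lower. An uncalled gene may still differ, since the genotype test has 1 residual degree of freedom plus 3.98 that limma borrows across genes. At 1.5-fold or more, Capg was the 1 gene higher and Scin the 1 gene lower in each subset. The dimmer Myh9 probe set, not part of this count, read 9.52 in wt and 8.92 in ko CD4-equivalent DCs. The Myh9 probe set used read 11.47 and 11.32 there. Among all genes compared, 3.98% were higher and 3.72% lower in CD4-equivalent DCs, and 4.61% and 3.48% in CD8-equivalent DCs, so these counts were not above the background.

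Capg read 10.09 in wt and 10.78 in ko CD4-equivalent DCs, and 9.67 in wt and 10.29 in ko CD8-equivalent DCs. The ko value was higher than the wt value within each subset, by 0.69 and 0.62, and the mean difference was 0.66 ± 0.12 (SE, limma adjusted p = 0.10). Capg passed the threshold of 0.05 with the stricter floor (adjusted p = 0.0497) and with a trended, robust prior (adjusted p = 0.024). Neutrophil markers, whose mean log2 level was 5.58 in wt and 7.43 in ko CD4-equivalent DCs, were 5.12 and 5.31 in CD8-equivalent DCs, and their part in the Capg difference was not tested. Gsn, the third gene of the family, differed by -0.17 and 0.19.

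Scin was 2.82-fold lower in ko among CD4-equivalent DCs and 1.66-fold lower among CD8-equivalent DCs. In CD4-equivalent DCs the ko value of 6.11 came close to the floor. The mean difference was -1.11 ± 0.21 (SE, limma adjusted p = 0.11), and Scin passed with the trended, robust prior (adjusted p = 0.040). The subsets differed by 0.77 in this effect, the largest such gap among the 41 genes, and that difference was not tested because it takes the only residual degree of freedom.

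**Figure D4:**
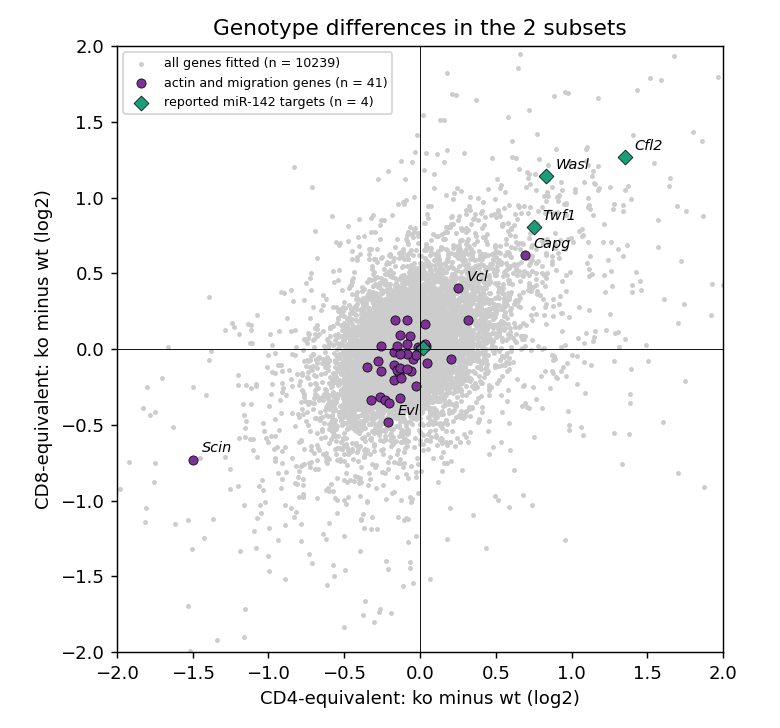
Log2 difference, ko minus wt, in CD4-equivalent (x axis) and CD8-equivalent DCs (y axis) for the 41 actin and migration genes (purple) and 4 reported miR-142 targets (green) over all 10239 genes fitted (grey, of which 53 lie outside the axes). Most purple points lie within 0.5 of 0 on both axes; Scin lies at the lower left, and Capg near Twf1 at the upper right.

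In the adhesion group, Vcl encodes vinculin, which strengthens the link between talin and filaments under tension. It read 9.47 in wt and 9.72 in ko CD4-equivalent DCs and 9.43 and 9.83 in CD8-equivalent DCs, so both ko arrays lay above both wt arrays. The mean difference was 0.33 ± 0.12 (SE, limma adjusted p = 0.30). Zyx read lower in ko by 0.20 and 0.36 (adjusted p = 0.36), and Tln1, Msn and Ezr lay within 0.13 of 0 in both subsets.

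No gene of the Arp2/3 complex, its activators or the coronins passed the genotype test. Arpc5, a subunit of the Arp2/3 complex, read 11.76 in wt and 11.44 in ko CD4-equivalent DCs and 11.70 and 11.36 in CD8-equivalent DCs, a difference of -0.33 in each (SE 0.12, limma adjusted p = 0.29). Both ko values lay below both wt values. Of the 6 measured subunits 5 read lower in ko in both subsets, where 37.3% of all genes did. The count was 5 after cyclic loess and 3 after each array was centred on its median, beside 31.9% and 31.3% of all genes. Was, the gene of the Wiskott-Aldrich syndrome protein that activates the complex in blood cells, read 9.93 and 9.86 in wt against 9.67 and 9.55 in ko (-0.29 ± 0.12, adjusted p = 0.33), and Wipf1 differed by -0.13 and -0.32. Wasf2, the gene of a WAVE protein that also activates the complex, lay at 0.03 and 0.16. The coronin gene Coro1a, whose product binds the Arp2/3 complex and filaments in leukocytes, read 11.73 and 11.76 in wt against 11.50 and 11.42 in ko (-0.28 ± 0.12, adjusted p = 0.35), while Coro1b differed by -0.02 and -0.24 and Coro1c by -0.07 and 0.08.

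Among the elongation factors, Evl read 9.66 in wt and 9.45 in ko CD4-equivalent DCs and 9.75 and 9.27 in CD8-equivalent DCs. Its mean difference was -0.35 ± 0.13 (SE, limma adjusted p = 0.31). Vasp differed by 0.21 and -0.07, Diaph1 by -0.27 and -0.08, and Diaph2 by -0.17 and -0.02.

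Neither Actb nor a monomer-binding gene passed the genotype test. Actb differed by 0.04 and 0.02, Cfl1 spanned 0.04 over all 4 arrays, Pfn1 differed by -0.03 and -0.04, and Tmsb4x by 0.05 and -0.09. Cap1, whose product recycles monomers from cofilin, read 12.77 and 12.78 in wt against 12.60 and 12.58 in ko (-0.19 ± 0.12, limma adjusted p = 0.51).

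None of the crosslinkers differed by 1.5-fold between genotypes. Elmo1 read 11.10 in wt and 10.75 in ko CD4-equivalent DCs and 10.63 and 10.51 in CD8-equivalent DCs (-0.23 ± 0.13, limma adjusted p = 0.45). The ko CD4-equivalent value lay above the wt CD8-equivalent value, so the genotypes overlapped. Dock8, which migrating leukocytes need to keep their shape, differed by -0.26 and 0.02. Dock2 (-0.12 and -0.19), Vav1 (-0.13 and -0.03), Iqgap1 (-0.26 and -0.15), Flna (-0.15 and -0.14) and Lcp1 (-0.09 and -0.03) read slightly lower in ko in both subsets. Fscn1 read higher in ko by 0.32 in CD4-equivalent DCs and by 0.19 in CD8-equivalent DCs, where it lay below the floor (limma adjusted p = 0.38). In the mature DC list, 6 of 11 genes read lower and 1 higher in ko in both subsets, where 37.3% of all genes read lower in both.

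Counted together, 24 of the 41 genes read lower in ko in both subsets, 6 read higher in both and 11 had opposite signs in the subsets, whereas 37.3% of all genes fitted read lower in both. The count was 22 after cyclic loess and 20 after centring, beside 31.9% and 31.3% of all genes. The median of the 41 genes was -0.13 among CD4-equivalent DCs and -0.07 among the CD8-equivalent ones, beside -0.07 and 0.003 over all genes fitted. The differences in each subset come from separate arrays, and across the 41 genes they had a Pearson r of 0.76 and a Spearman correlation of 0.59, and 0.70 and 0.53 without Scin and Fscn1; over all genes fitted the values were 0.49 and 0.39.

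For comparison, 4 cytoskeletal genes reported as miR-142 targets and not among the 41 were measured; 3 of them differed by over 1.5-fold in both subsets and the other by only 0.018 and 0.006. Cfl2 (a second cofilin, 1.36 and 1.27), Wasl (the broadly expressed relative of Was, 0.83 and 1.14) and Twf1 (twinfilin, which binds monomers and filament ends, 0.75 and 0.80) read higher in ko by more than any of the 41 genes within each subset. None of the 4 passed limma's adjusted threshold, where Cfl2 came closest (adjusted p = 0.0503).

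Of 109 other measured actin, motor, signalling and adhesion genes, reported targets left out, 95 reached the floor. Limma called 4 of the 95 as higher and 7 as lower in CD8-equivalent DCs, and 0 for genotype, where 16 had an unadjusted p under 0.05. The shares over all genes were 7.98% higher, 6.35% lower and 15.6% at that unadjusted p. The lower calls and the genotype count were near these shares, and the higher calls were a smaller share. At an unadjusted p under 0.05 for subset, limma gave 8 of the 95 as higher and 26 as lower, beside 20.3% and 13% of all genes. The genes that rose in CD8-equivalent DCs were Cyfip2, a subunit gene of the WAVE complex (0.55 in wt and 0.55 in ko, adjusted p = 0.042), the formin gene Diaph3 (0.48 and 0.68, adjusted p = 0.044), the coronin gene Coro7 (0.55 and 0.77, adjusted p = 0.033) and Parvg, which encodes a leukocyte parvin of integrin adhesions (0.80 and 0.75, adjusted p = 0.021). Dock1, which encodes a protein used in engulfment, fell most (-2.04 and -1.37, adjusted p = 0.012).

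Abi3, a WAVE complex gene, also fell (-1.01 and -1.03, limma adjusted p = 0.013), as did the exchange factor gene Tiam1 (-1.21 and -0.75, adjusted p = 0.023), the class I myosin gene Myo1e (-0.66 and -1.01, adjusted p = 0.025), the paxillin relative Lpxn (-0.56 and -0.69, adjusted p = 0.034), the supervillin gene Svil (-1.16 and -0.51, adjusted p = 0.047) and the filament-binding kinase substrate Marcks (-0.46 and -0.96, adjusted p = 0.04997). Within the WAVE complex, Cyfip2 and Abi3 differed in opposite directions between the subsets. Aif1, which encodes a filament-bundling protein of myeloid cells (1.79 and 0.06), and the alpha-actinin gene Actn1 (-0.44 and -1.39) were also among the 5 largest mean differences and were not called (adjusted p = 0.19 and 0.068).

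For genotype, the largest and the third largest mean differences in that wider list were those of Carmil1, a regulator of capping protein (1.72 among CD4-equivalent DCs and 0.58 among CD8-equivalent, limma adjusted p = 0.17) and Dock1 (-1.15 and -0.47, adjusted p = 0.16). Of the 95 genes, 51 read lower in CD8-equivalent DCs in both genotypes and 52 read lower in ko in both subsets, which is 53.7% and 54.7%, beside the 29% and 37.3% of all genes fitted.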

How the data were processed

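Gene expression was measured on 4 Affymetrix arrays, 1 for each combination of genotype and subset, so each value has no replicate and the number of arrays limits its precision. The deposited values are log2 summaries per probe set; per the submitters' processing notes RMA and Partek were used, with no versions, and the log base was inferred from the range of 3.52 to 14.3. RMA corrects background, normalises arrays together and compresses differences near background. The array's 2016 annotation pairs 21789 of the 35399 probe sets with exactly 1 gene, and these were used; all 41 genes matched a RefSeq gene ID.

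Pairwise differences have no test. limma 3.58.1 (R 4.3.3, lmFit and eBayes) fitted genotype and subset additively over 10239 genes, two-sided, with Benjamini-Hochberg adjustment at 0.05. The only residual is how far the genotype difference varies between the subsets. The p-values rest on that residual and on the spread that limma borrows across genes. Separate mice or cultures are not stated, so this spread may be technical and does not measure variation between animals. The fit was tested on simulated data with planted genotype changes and no subset change or interaction, so that test does not cover the subset calls. Pairwise counts required the higher value to reach the floor. Values were given for genes called, at least 1.5-fold apart in a pair, or with the largest genotype difference of their role; a few others were added to complete a role. Some genes of these lists are not reported here. The members and lists were chosen with earlier results of these data known. Alternatives were other floors, cyclic loess, centring, mean probe sets, another prior, 1-factor models and, added after seeing the data, leaving out each array.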

Additional observations from a re-analysis of the deposited data

How the results depend on the processing

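No paired analysis was possible because each group holds 1 array, so replicate numbers pair nothing; the additive model already compares each factor within the levels of the other. Fscn1, Scin, Zyx and Ezr kept the direction of their subset difference in every alternative that fitted them; Fscn1 did not reach the stricter floor. The number of the 41 genes called for subset, 4, was 2 without the floor, 7 with the stricter floor, 7 with centred arrays, 10 with the trended prior and 1 without genotype in the model (Zyx and Ezr were lost without the floor, and Scin, Zyx and Ezr without genotype), and 0 to 1 when an array was left out, a choice made after seeing the data. Over all genes, 1467 subset calls became 946 without the floor, 99 without genotype in the model and 0 to 45 when an array was left out. For genotype, 17 calls became 3 without the floor, 141 with the stricter floor, 128 with centred arrays, 307 with the trended prior, 0 without subset in the model and 0 to 0 when an array was left out, and the 41 genes gave 1 call with the stricter floor (Capg) and 2 with the trended prior (Capg and Scin). Fits that leave out an array or a factor put the other factor into the residual.

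At 2-fold in place of 1.5-fold, 0 genes were higher in ko in either subset and 0 lower in ko among CD8-equivalent DCs, while Scin stayed lower in ko among CD4-equivalent DCs. Between subsets at 2-fold, 1 gene was lower in CD8-equivalent DCs of wt (Fscn1), and in ko 1 was higher (Scin) and 1 lower (Fscn1). With the stricter floor, 0 genes were lower in ko CD4-equivalent DCs, and 1 was lower in CD8-equivalent DCs of wt and 1 in those of ko. Centring gave 4 lower in CD8-equivalent DCs of ko. The cause of the other shifts was not tested. Values below the floor, such as Fscn1 in CD8-equivalent DCs, limit how small a level can be read.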
